A study of Mus musculus with 12 samples.

Results

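Cells detect misplaced nucleic acid with a small set of sensor proteins, and 10 genes of this system are described here in irradiated and untreated mouse tumour cells. The members, chosen by gene symbol, were Cgas, Sting1, Trex1, Aim2, Rigi, Ifih1, Tlr3, Mavs, Tbk1 and Adar, 10 of the 57180 genes in the deposited table. RNA came from 2 lines: MB49, a bladder cancer line, and KPC, a pancreatic ductal adenocarcinoma line. Each line had a control group and a group irradiated with 8 Gy, with 3 libraries in each of the 4 groups. All groups carry the genotype label WT and were grown in DMEM with fetal bovine serum and antibiotics. Irradiated cells were collected after 48 h in culture. The labels state no such time for control cells, so dose and time in culture cannot be told apart. The design text speaks of senescent and ordinary cells of both lines, while each library's label gives only the line and control or 8 Gy. Whether replicate libraries stem from different cultures is not stated, and the p-values may therefore reflect technical spread alone.

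As background, cGAS binds double-stranded DNA in the cytosol and makes a cyclic dinucleotide that activates STING. RIG-I and MDA5 (encoded by Rigi and Ifih1) bind viral or misprocessed RNA and signal through the mitochondrial adaptor MAVS, while TLR3 reads double-stranded RNA inside endosomes. The STING and MAVS branches meet at the kinase TBK1, which activates the interferon transcription factor IRF3. AIM2 also binds DNA but assembles an inflammasome. TREX1 degrades DNA and ADAR edits double-stranded RNA, and each thereby limits what the sensors can bind. Irradiation can leave DNA fragments in the cytosol, and several of these genes are themselves induced by interferon.

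The libraries held 19006015 to 26337950 estimated counts. The 10 genes together took 0.0636 to 0.0641% of the counts in irradiated KPC libraries, above all 3 KPC controls at 0.0341 to 0.0442%. In MB49 they took 0.0353 to 0.0428% in controls and 0.0426 to 0.0477% after 8 Gy, ranges that overlap. Levels are given as CPM, the estimated counts relative to a library size scaled by TMM factors. Changes are on the log2 scale with their SE, tested in edgeR by quasi-likelihood. Of all genes, 14362 could be tested, among them all 10 members, and those with an adjusted p (Benjamini-Hochberg) under 0.05 are called changed. The samples are bulk cultures, so fewer cells with a transcript and less of it per cell cannot be told apart. The leukocyte gene Ptprc had 1 count in all 12 libraries. The 16 leukocyte markers summed to 236 to 256 CPM in MB49 controls and 98.9 to 119 CPM after 8 Gy, and to 37.9 to 39 and 95.5 to 103 CPM in KPC. Nearly all of this was Flt3 (187, 45.8, 2.51 and 0.807 CPM in the same order) and Cd14 (60.6, 63, 35.7 and 96.3 CPM), and the other 14 markers summed to at most 2 CPM in any library. The part of these genes in the results was not tested. The tumour lines themselves carried the epithelial keratin gene Krt8 at 363 to 1820 CPM (group means). The other epithelial markers were Krt18, Krt19, Epcam, Cdh1 and Krt7. They stood at 1310, 3.85, 1.24, 0.945 and 0.198 CPM in MB49 controls. In KPC controls they stood at 354, 80.6, 0.187, 39 and 28.3 CPM. The 6 fibroblast markers summed to 52.4 to 71.5 CPM in MB49 controls and 166 to 209 CPM in KPC controls. After 8 Gy the order was reversed, at 159 to 215 CPM in MB49 and 81.2 to 101 CPM in KPC. Single markers differed in direction: Dcn had 36.1 CPM in MB49 controls and 0.196 CPM in KPC controls, and Pdgfrb 0.181 and 104 CPM. Of 6 urothelial markers in MB49 controls, Upk1b, Upk2 and Upk3a had 0 counts, Pparg 5, Upk1a 19 and Gata3 1099 (14.2 CPM). Of the MB49 controls, replicate 3 alone held the epithelial gene Epcam, with 86 counts. KPC control replicate 1 had 5.11% of its counts in an 18S ribosomal RNA gene, against at most 0.547% in the other libraries.

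Compared per length, as CPM per kilobase, the 10 genes differed widely within each group. Sting1 was the highest in MB49 controls (36.4 ± 4.95, SD, n = 3), followed by Rigi (16.8 ± 2.05), Mavs (16.3 ± 2.16) and Adar (15 ± 2.25). KPC controls had Adar highest (25 ± 3.46), then Mavs (18.4 ± 2.1) and Rigi (17.8 ± 2.81), and then Sting1 (14 ± 1.76). After 8 Gy Sting1 led in both lines, at 81.3 ± 12.2 CPM per kilobase in MB49 and 84.7 ± 4.2 in KPC. In irradiated KPC cells Trex1 (33.8 ± 1.53) came next after Rigi (58.7 ± 0.375), while in the controls (5.3 ± 0.894) it stood below Tbk1 (6.65 ± 1.11). Ifih1 was the lowest or next to lowest in all 4 groups, at 0.432 ± 0.115 CPM per kilobase in its highest group, irradiated KPC cells. The DNA sensor gene Cgas was far below its partner Sting1 in length-adjusted level: the ratio of Sting1 to Cgas was 4.11 to 5.3 in KPC controls and 65.4 to 83.9 after 8 Gy.

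**Figure D1:**
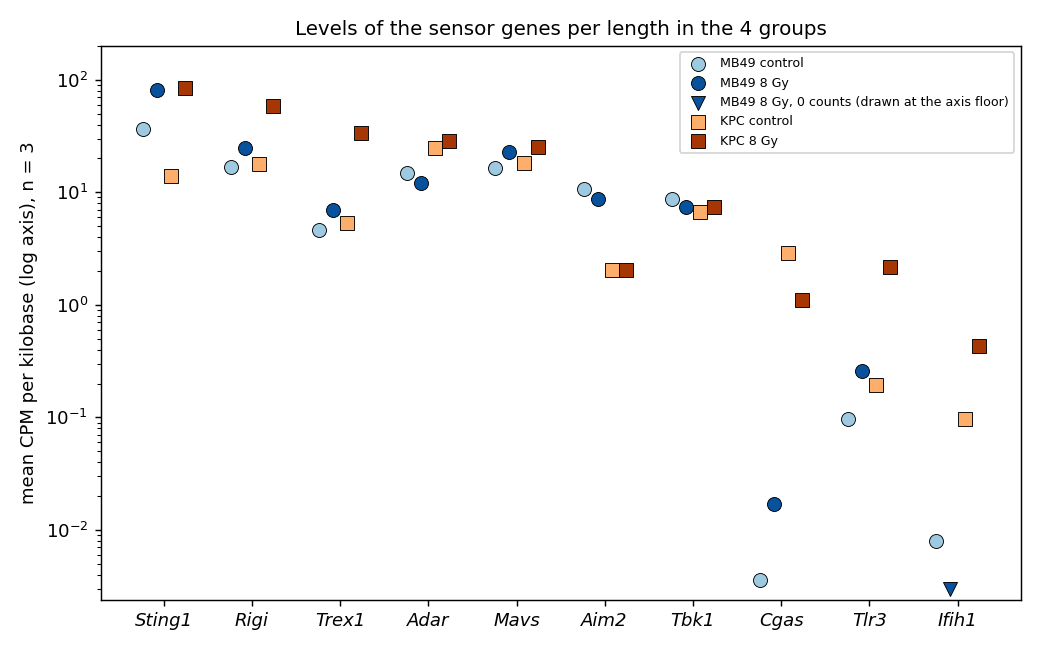
Mean CPM per kilobase of gene length (vertical log axis) of the 10 sensor genes, ordered by their highest group mean, in the 4 groups (n = 3 libraries each, without error bars). Cgas and Ifih1 lie far lower in MB49 (circles) than in KPC (squares), and Sting1 reaches 81.3 and 84.7 CPM per kilobase in the irradiated groups.

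In KPC cells 6 of the 10 genes rose after 8 Gy, 1 fell and 3 were not called. Over all genes tested 63.3% were called in this comparison, 31.3% rising and 32.0% falling. Sting1, Rigi, Ifih1, Tlr3, Trex1 and Mavs rose, Cgas fell, and Tbk1, Aim2 and Adar were the genes not called. The median log2 change of the 10 genes was 1.09, against -0.01 over all genes. In MB49 these medians were 0.52 and 0.04. The members were chosen with earlier results of these data known, so the medians describe them and test nothing. In MB49 cells 5 of the 10 rose and the other 5 were not called, where 66.9% of all genes were called, 35.3% rising and 31.6% falling. These were Sting1, Rigi, Tlr3, Trex1 and Mavs, which also rose in KPC. DESeq2's Wald test likewise called 5 rising members and 0 falling ones in MB49, where it called 4980 rising and 4517 falling genes over all. Without adjustment 1 member, Adar, fell there at the same threshold. Scaling by library totals without TMM factors shifts the median over all genes by -0.27 in MB49 and -0.38 in KPC. With it 2 members rose and 3 fell in MB49, and 5 rose and 1 fell in KPC. Of all 14362 genes tested, 3821 then rose and 5850 fell in MB49, and 3086 rose and 6620 fell in KPC. In MB49 Sting1 and Tlr3 were the members that rose under both scalings.

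**Figure D2:**
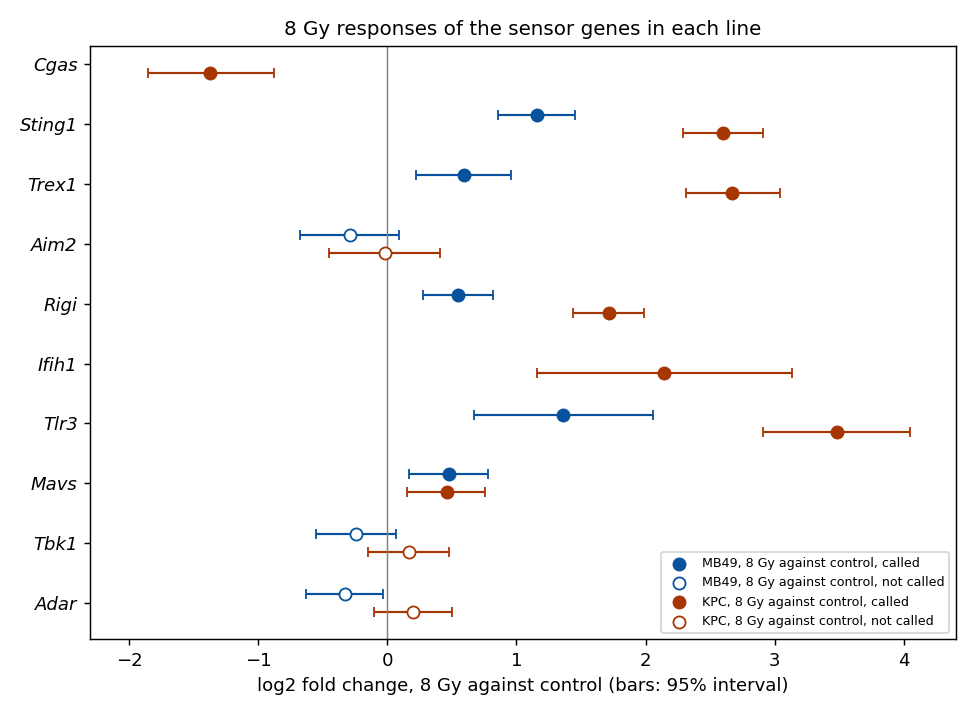
Log2 fold change after 8 Gy (horizontal axis) with its 95% interval for each gene, in MB49 (blue) and KPC (brown), filled where called at an adjusted p under 0.05. Cgas and Ifih1 have no MB49 value because the MB49 groups held 0 to 4 counts; Tlr3, Trex1, Sting1 and Rigi lie farther right in KPC than in MB49.

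Of the DNA-sensing genes, Cgas, which encodes the sensor itself, was present in KPC cells and nearly absent from MB49 cells. Its level in the 3 KPC controls was 11.9, 11.8 and 11.1 CPM. After 8 Gy it was 3.97, 4.03 and 5.54 CPM. The groups did not overlap, and the fall was -1.37 ± 0.23 (adjusted p = 5.43e-05, fold of 0.388), between -1.75 and -1.28 over 19 alternative settings. In MB49 the counts were 0, 0 and 1 in controls and 2, 0 and 2 after 8 Gy. The single control count was in replicate 3, the library with the Epcam counts. The 4 counts against 1 give a ratio of 5.23 with a 95% exact counting interval of 0.518 to 258, and no change was detectable at this depth (adjusted p = 0.126). Without control replicate 3, and so with 0 control counts, it was called (adjusted p = 0.0355). The controls of the lines had 874 counts in KPC and 1 in MB49, a ratio of 904 (95% counting interval 162 to 35800), and intervals of this kind cover counting error only. After irradiation KPC had 270 counts and MB49 had 4, a ratio of 66.2 (25.6 to 245). The RefSeq promoter window of Cgas, the 250 bases before its start (GRCm38.p6, chr9:78443238-78443487, minus strand), is printed because Cgas was the member that fell. It holds none of the motifs searched:
Cgas promoter: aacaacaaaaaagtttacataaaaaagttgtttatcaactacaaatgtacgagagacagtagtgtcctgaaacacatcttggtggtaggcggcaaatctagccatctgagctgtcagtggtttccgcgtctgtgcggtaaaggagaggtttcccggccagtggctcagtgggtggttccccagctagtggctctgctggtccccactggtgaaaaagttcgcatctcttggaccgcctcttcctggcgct

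Sting1 encodes the adaptor that receives the cGAS product, and it rose in both lines from different starting levels. KPC controls had 35.3, 27.6 and 33.6 CPM and irradiated KPC cells 189, 189 and 206 CPM. The rise was 2.6 ± 0.15 (adjusted p = 1.03e-10), a fold of 6.06. MB49 controls were already higher, at 95.9, 81.8 and 73.4 CPM, and reached 210, 196 and 156 CPM after 8 Gy (1.16 ± 0.14, adjusted p = 1.22e-06, fold of 2.23). The untreated lines therefore differed, KPC minus MB49 being -1.38 ± 0.14 (adjusted p = 1.5e-07), and the irradiated lines overlapped, with a difference of 0.06 and a 95% interval of -0.23 to 0.35. From lowest to highest the groups stood as KPC control, MB49 control, then the irradiated groups, which were not separated.

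Trex1, the gene of the DNA exonuclease, responded mainly in KPC cells. Its level was 6.86, 5.27 and 5.1 CPM in KPC controls and 35.7, 35.6 and 38.5 CPM after 8 Gy, a change of 2.67 ± 0.17 (adjusted p = 5.94e-10, fold of 6.37). All 3 irradiated KPC libraries were far above the other 9. In MB49 it went from 5.01, 4.29 and 5.85 CPM to 7.42, 9.16 and 6.25 CPM (0.59 ± 0.18, adjusted p = 0.00647). That smaller change was not called without MB49 8 Gy replicate 2 (0.44, adjusted p = 0.0523) or with library totals (0.29, adjusted p = 0.117). Trex1 is also a short gene of 1084 bases, and the shortest eighth of genes had a median change of 0.64 in MB49 and -0.06 in KPC; the part of length in the MB49 value was not tested. Its counts were not whole numbers in any of the 12 libraries, so some of its reads may have been split with an overlapping gene.

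Aim2, the gene of the inflammasome-forming DNA sensor, had the opposite line preference to Cgas. MB49 controls had 26.8, 33.5 and 31.4 CPM and KPC controls 6.36, 6.28 and 4.86 CPM, so that KPC stood below MB49 by a log2 difference of -2.39 ± 0.2 (adjusted p = 8.11e-09). In KPC it was not called after 8 Gy, at 6.05, 5.81 and 5.43 CPM (-0.02, adjusted p = 0.961). In MB49 replicates 1 and 2 of the irradiated group were lower than every control, at 20.1 and 20.4 CPM, while replicate 3 was at 34.2 CPM. The MB49 change of -0.29 ± 0.18 did not pass (adjusted p = 0.163) but was -0.59 without MB49 8 Gy replicate 3 (adjusted p = 0.00244), -0.58 with library totals (0.0206) and -0.41 with no filter on low counts (0.0326). In the annotation at hand Aim2 overlaps Cadm3, which had 243 CPM in MB49 controls, 166 CPM in irradiated MB49 cells and 0 in KPC. The counts of Aim2 were whole in all 12 libraries, and the part of this overlap in its values was not tested.

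**Figure D3:**
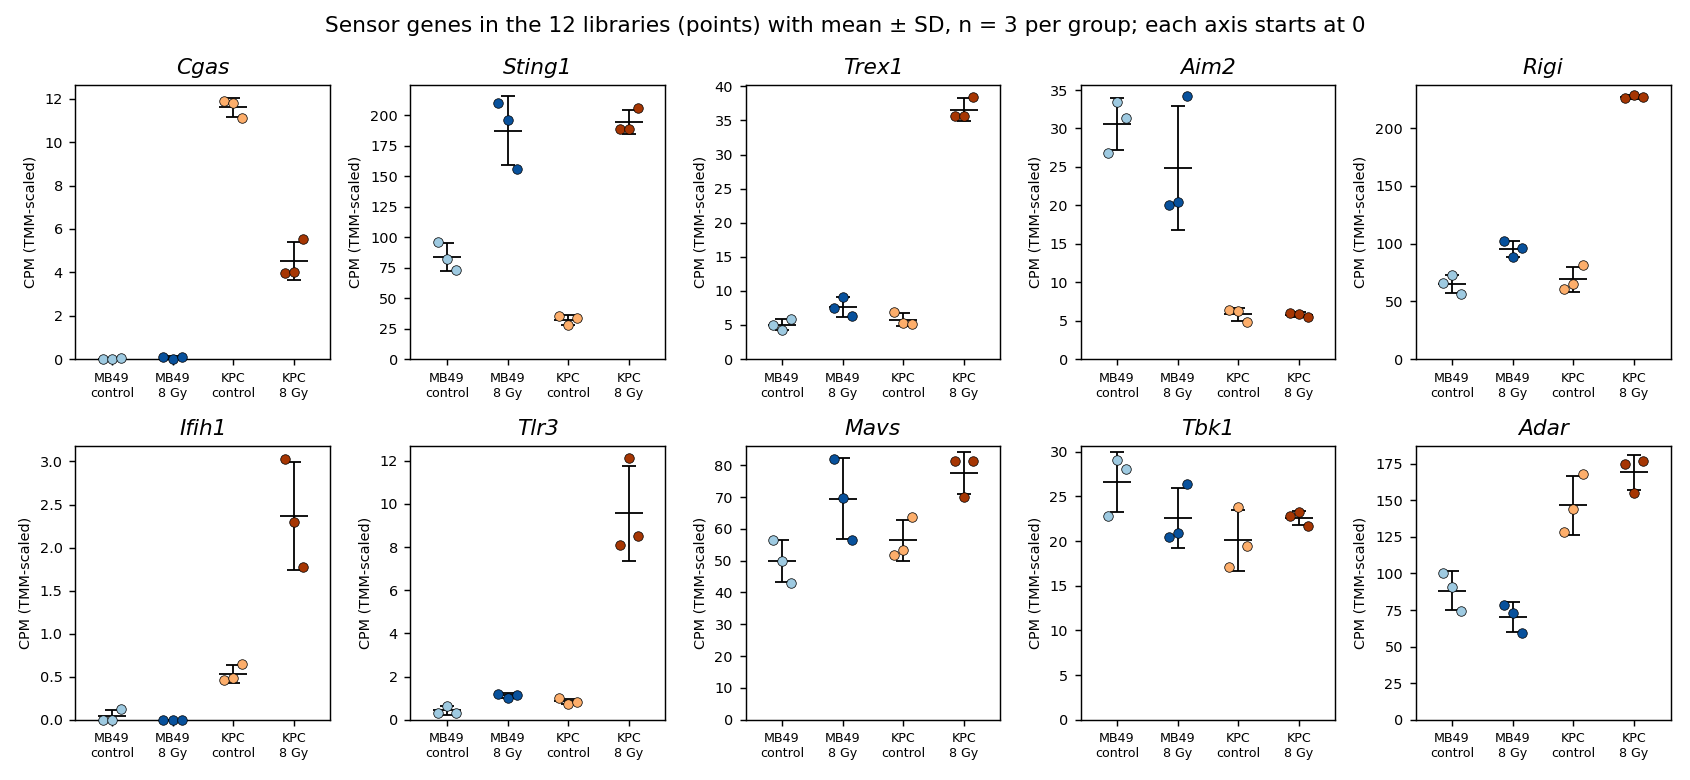
CPM of each sensor gene (vertical axes, each from 0) in the 12 libraries (points) with the group mean ± SD, n = 3. Trex1, Rigi, Ifih1 and Tlr3 stand apart in the irradiated KPC libraries, where Rigi spans 226 to 229 CPM, Sting1 is high in both irradiated groups, and the groups of Tbk1 overlap.

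Of the RNA sensors, Rigi was well expressed in all groups and rose in both lines. The KPC controls had 60.6, 65.4 and 81.4 CPM and the irradiated KPC libraries 226, 229 and 227 CPM, a change of 1.72 ± 0.13 (adjusted p = 4.59e-09, fold of 3.29). MB49 went from 66.2, 72.6 and 56.8 CPM to 102, 88.4 and 96.6 CPM (0.55 ± 0.13, adjusted p = 0.00107), with no overlap, although with library totals the change was 0.26 (adjusted p = 0.114). The controls of the lines overlapped and did not pass the test (0.08 ± 0.13, adjusted p = 0.577). Irradiated KPC cells were above irradiated MB49 cells by 1.25 ± 0.13 (adjusted p = 1.84e-07).

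Ifih1, which encodes the related sensor MDA5, was low in KPC cells and at the detection limit in MB49 cells. The counts were 11, 13 and 16 in KPC controls and 61, 53 and 31 after 8 Gy. The groups did not overlap, and the change was 2.14 ± 0.46 (adjusted p = 0.000793). The 6 MB49 libraries held 3 counts in all, each of them in control replicate 3, the library with the Epcam counts, and 0 after 8 Gy. No fold is given for MB49. Irradiated KPC cells, with 145 counts, were at least 47.4-fold higher than irradiated MB49 cells when 3 counts are taken as the limit for the empty group. In KPC controls Rigi exceeded Ifih1 per length by a ratio of 176 to 190, and by 106 to 181 after irradiation.

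Tlr3, the endosomal sensor gene, had the largest change of the 10 genes in KPC. It was at 0.998, 0.748 and 0.817 CPM in KPC controls and 8.08, 12.1 and 8.52 CPM after 8 Gy (3.48 ± 0.27, adjusted p = 5.71e-09, fold of 11.2). In MB49 its levels were 0.327, 0.659 and 0.304 CPM in controls and 1.21, 1.01 and 1.17 CPM after 8 Gy, a change of 1.36 ± 0.33 (adjusted p = 0.00148) that rests on 34 and 67 counts. The 4 groups did not overlap and were ordered MB49 control, KPC control, MB49 8 Gy and KPC 8 Gy. The step from KPC control to MB49 8 Gy was not tested, and its nearest libraries were at 0.998 and 1.01 CPM. The step between the controls (0.96 ± 0.33, adjusted p = 0.0162) was lost without MB49 control replicate 1 (adjusted p = 0.0741), MB49 control replicate 3 (0.0604) or KPC control replicate 1 (0.0734), and with the control groups fitted alone (0.0505).

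Mavs encodes the adaptor on which RIG-I and MDA5 converge, and it moved little. MB49 controls had 56.4, 49.9 and 43.1 CPM and irradiated MB49 cells 82, 69.7 and 56.6 CPM (0.48 ± 0.14, adjusted p = 0.00753), so that the highest control nearly met the lowest irradiated library. KPC controls had 51.9, 53.5 and 63.7 CPM and irradiated KPC cells 81.3, 69.9 and 81.3 CPM (0.46 ± 0.14, adjusted p = 0.0104). With library totals the changes were 0.18 and 0.07 (adjusted p = 0.27 and 0.682), and the MB49 call was also lost without MB49 8 Gy replicate 1 (0.34, adjusted p = 0.0608). The length-adjusted ratio of Rigi to Mavs was 0.921 to 1.01 in KPC controls and 2.2 to 2.59 after 8 Gy, whereas in MB49 it was 0.926 to 1.15 and 0.979 to 1.35.

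No window of Sting1 was used, so its promoter was not searched. RefSeq promoter windows were used for the other 9 of the 10 members, 12 windows in all. They were searched on both strands for the interferon-stimulated response element (a pair of GAAA with 2 bases between), the gamma-activated site TTCNNNGAA and the NF-kB site (GGGA, any base, TTTCC). A pair of GAAA letters with 1 base between, GAAANGAAA, was added after the sequences had been seen. Of all 32851 windows of the same length, 2.98, 7.02, 0.356 and 2.68% held these. Among the members' windows, Tlr3 had the NF-kB letters 211 to 202 bases before its start and Rigi had the added pair 60 to 52 bases before its start. These windows are printed because they are the ones with a match, shown in capitals, and both genes rose in both lines. Rigi lies at chr4:40239826-40240075 and Tlr3 at chr8:45410381-45410630 (GRCm38.p6, both on the minus strand):
Rigi promoter: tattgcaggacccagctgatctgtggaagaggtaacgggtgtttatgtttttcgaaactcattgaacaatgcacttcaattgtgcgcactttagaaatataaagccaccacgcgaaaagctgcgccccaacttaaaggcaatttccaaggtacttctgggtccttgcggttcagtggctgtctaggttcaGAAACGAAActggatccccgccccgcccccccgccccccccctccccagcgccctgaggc
Tlr3 promoter: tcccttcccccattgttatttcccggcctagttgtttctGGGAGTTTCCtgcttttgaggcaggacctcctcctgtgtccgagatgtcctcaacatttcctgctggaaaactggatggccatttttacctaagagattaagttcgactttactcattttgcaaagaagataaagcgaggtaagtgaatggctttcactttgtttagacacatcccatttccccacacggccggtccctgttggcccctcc
The other members' windows held none of these letters, which describes only these 250 bases.

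The kinase gene Tbk1 and the RNA editing gene Adar were the members least separated by irradiation, with Aim2. Tbk1 was at 17.1 to 23.8 CPM in KPC controls and 21.7 to 23.2 CPM after 8 Gy, and at 22.8 to 29.1 and 20.4 to 26.4 CPM in MB49. The changes of 0.17 (95% interval -0.15 to 0.48) in KPC and -0.24 (-0.55 to 0.07) in MB49 did not pass (adjusted p = 0.343 and 0.161), and all neighbouring groups overlapped. The MB49 change was called as a fall without MB49 8 Gy replicate 3 (-0.37, adjusted p = 0.0429) and with library totals (-0.53, adjusted p = 0.0114). Adar was at 128, 144 and 168 CPM in KPC controls and 175, 155 and 177 CPM after 8 Gy (0.2 ± 0.14, adjusted p = 0.227). In MB49 it was at 100, 90.6 and 74.1 CPM in controls and 78.3, 73.2 and 59.1 CPM after 8 Gy (-0.33 ± 0.14, adjusted p = 0.0504). That value lay at the threshold: 8 of 19 alternatives called a fall, from -0.63 with library totals to -0.33. In KPC library totals turned the Adar value to -0.19, again not called. Its counts, like those of Trex1, were not whole in any library. Adar, at 5871 bases, stands in the longest eighth of genes, whose median change in MB49 was -0.28, and the part of length was not tested. Per length, Adar exceeded Rigi by 1.37 to 1.45 in KPC controls and was at 0.445 to 0.515 of it after 8 Gy.

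The responses of the 2 lines were then compared directly, as the KPC change minus the MB49 change. It was larger in KPC for 6 members and smaller for 1, where 42.9% of all genes were called, 20.9% larger and 22.0% smaller. For Tlr3 the difference was 2.12 ± 0.44, for Trex1 2.08 ± 0.24, for Sting1 1.44 ± 0.2 and for Rigi 1.17 ± 0.18, with adjusted p of 0.000913, 4.31e-06, 2.15e-05 and 7.68e-05. These 4 kept their call under each of 18 alternatives. The difference for Adar (0.53 ± 0.2, adjusted p = 0.0414) was lost under 9 of 18, among them library totals and leaving out MB49 control replicate 1 or 2, MB49 8 Gy replicate 2 or 3, KPC control replicate 2, or KPC 8 Gy replicate 1 or 3 (adjusted p of 0.0567 to 0.114). Those for Ifih1 (larger, adjusted p = 0.0396) and Cgas (smaller, adjusted p = 0.0264) rest on MB49 groups of 0 to 4 counts, and their sizes depend on the prior count. Ifih1 lost its call under 9 of 18 alternatives, with an adjusted p of 1 without MB49 control replicate 3, which held all its MB49 counts. The other losses were the replicate block (0.0615) and leaving out any 1 MB49 8 Gy replicate, KPC control replicate 1 or 2, or KPC 8 Gy replicate 1 or 2 (0.0504 to 0.0705). Cgas lost its call under 4 of 18, without MB49 control replicate 1 or 2 (0.0708 and 0.0689) or MB49 8 Gy replicate 1 or 3 (0.118 and 0.106). Mavs had a difference of -0.02 (95% interval -0.45 to 0.41, adjusted p = 0.969), Aim2 one of 0.28 (adjusted p = 0.443) and Tbk1 one of 0.4 (adjusted p = 0.13). Aim2 and Tbk1 passed without MB49 8 Gy replicate 3 (0.58 and 0.53, adjusted p = 0.0349 and 0.0433).

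Before irradiation, 4 members were higher in KPC (Cgas, Ifih1, Tlr3 and Adar) and 3 were lower (Aim2, Sting1 and Tbk1), where 67.3% of all genes were called, 33.0% higher and 34.4% lower. Adar differed by 0.73 ± 0.14 (adjusted p = 0.000215). For Tbk1 the difference was -0.4 ± 0.15 (adjusted p = 0.0215) although libraries overlapped, and the call was lost without MB49 control replicate 2, KPC control replicate 1 or KPC control replicate 3 (adjusted p = 0.0819, 0.0751 and 0.0591). Rigi, Mavs and Trex1 did not pass. After irradiation 6 members were higher in KPC and 1, Aim2, was lower (-2.11 ± 0.2, adjusted p = 5.6e-08), where 64.4% of all genes were called, 31.0% higher and 33.4% lower. Trex1 was among the higher ones (2.27 ± 0.17, adjusted p = 2.92e-09), together with Tlr3 (3.08 ± 0.27, adjusted p = 1.85e-08) and Adar (1.27 ± 0.14, adjusted p = 6.83e-07). These line comparisons use the same libraries as the responses above and are not independent of them.

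The other genes of the same pathways were taken from 7 lists. Their counts stand beside shares over all genes of 31.3% rising and 32.0% falling in KPC, and 35.3% rising and 31.6% falling in MB49, and nothing particular to a list is read from them. Of 18 tested genes of RNA sensing, 11 rose and 2 fell in KPC (median 0.6), and 9 rose and 3 fell in MB49 (median 0.24), against medians of -0.01 and 0.04 over all genes. Dhx58, which encodes LGP2, the RIG-I relative that lacks signalling domains, rose in KPC from 16.5 ± 0.312 to 256 ± 6.23 CPM and in MB49 from 0.54 ± 0.227 to 10.7 ± 0.348 CPM (adjusted p = 1.61e-13 and 3.69e-12). Zbp1, a sensor of left-handed nucleic acid, rose in KPC from 2.65 ± 0.331 to 453 ± 3.02 CPM (7.42 ± 0.15, adjusted p = 5.84e-15). In MB49 its counts went from 0 to 2394. Ddx60, a helicase gene, rose in KPC by 4.01 ± 0.25 (adjusted p = 4.77e-10). It was called in MB49 too (2.35 ± 0.7, adjusted p = 0.00695), on 3 and 13 counts, and the difference between lines was not called (adjusted p = 0.232). Nlrx1, a mitochondrial restraint on MAVS signalling, fell in KPC (-1.8), and the helicase gene Dhx9 fell in both lines (-0.52 in KPC and -1.43 in MB49). Myd88, the adaptor of most Toll-like receptors but not of TLR3, fell in MB49 (-1.06, adjusted p = 7.54e-07).

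Of 19 tested genes of DNA sensing other than the members, 9 fell and 5 rose in KPC (median -0.12), where 32.0% of all genes fell and 31.3% rose. In MB49 9 fell and 3 rose (median -0.29), where 31.6% of all genes fell and 35.3% rose. Polr3f, a subunit of RNA polymerase III, fell in both lines (-1.95 in KPC and -1.74 in MB49), while another subunit gene, Polr3c, rose by 2.08 ± 0.11 and 0.87 ± 0.1. Mre11a, the DNA break nuclease gene, rose in both lines (0.7 ± 0.1 in KPC and 1.1 ± 0.1 in MB49, adjusted p = 1.18e-05 and 5.86e-08). The DNA-dependent kinase gene Prkdc and its partner Xrcc6 fell in KPC (-1.82 and -1.02), and Xrcc6 fell in MB49 too (-0.41, adjusted p = 0.00328). Among 18 genes that move STING or handle cyclic dinucleotides, 8 rose and 6 fell in KPC (median 0.26) and 6 rose and 6 fell in MB49 (median 0.18), the latter near the shares over all genes. Stim1, which holds STING in the endoplasmic reticulum, rose in both lines (1.02 ± 0.15 and 1.34 ± 0.15). Slc19a1, a folate carrier that also imports cyclic dinucleotides, fell in both lines (-2.59 in KPC and -2.39 in MB49). Rnf26, a ubiquitin ligase gene, rose in KPC (1.11 ± 0.14), and Npc1, the lysosomal cholesterol transporter gene, rose in both lines (0.66 ± 0.15 in KPC and 1.01 ± 0.15 in MB49).

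Downstream of the sensors, 6 of 16 genes rose and 7 fell in KPC (median 0.1), and 4 rose and 7 fell in MB49 (median -0.05). Over all genes 31.3% rose and 32.0% fell in KPC, and 35.3% and 31.6% in MB49. Irf7, the interferon-inducible relative of IRF3, rose from 50.9 ± 4.49 to 1170 ± 51.4 CPM in KPC and from 1.06 ± 0.357 to 30.6 ± 2.7 CPM in MB49 (4.53 ± 0.16 and 4.86 ± 0.19). Irf3 itself fell in both lines, from 38.9 ± 4.93 to 19.1 ± 1.05 CPM and from 42.4 ± 6.74 to 17.2 ± 2.04 CPM (adjusted p = 7.91e-06 and 4.68e-07). Ikbke, the kinase gene most related to Tbk1, rose by 2.58 ± 0.12 in KPC and 1.84 ± 0.11 in MB49. Traf3, a ubiquitin ligase on the MAVS branch, fell in KPC from 82.9 ± 15.7 to 26 ± 2.17 CPM and stood at 0.354 ± 0.165 and 0.642 ± 0.291 CPM in the MB49 groups. Rela, the NF-kB subunit gene, fell most in MB49, from 555 ± 60.6 to 143 ± 31.4 CPM (-1.95 ± 0.15). Of 17 genes that remove or restrain nucleic acid, 8 rose and 6 fell in KPC (median 0.07) and 8 rose and 3 fell in MB49 (median 0.48), against the same shares over all genes. Samhd1, the dNTP hydrolase gene, rose from 96.4 ± 4.26 to 515 ± 7.77 CPM in KPC (2.42 ± 0.11) and by 1.16 ± 0.11 in MB49, while Rnaseh1 fell in both lines (-1.55 in KPC and -1.66 in MB49). The second ADAR enzyme gene, Adarb1, fell in KPC (-1.57, adjusted p = 1.03e-07).

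On the AIM2 inflammasome list, 5 of 7 tested genes rose in KPC and the other two were not called, and 6 rose and 1, the caspase gene Casp8, fell in MB49. Over all genes 31.3% rose in KPC, and 35.3% rose and 31.6% fell in MB49. Casp1, the inflammatory caspase gene, rose from 2.33 ± 0.0834 to 27 ± 4.86 CPM in KPC and from 0.732 ± 0.322 to 15.4 ± 4.64 CPM in MB49. Gbp5, an interferon-inducible GTPase gene, rose by 8.51 ± 0.22 and 9.09 ± 0.25. Ifi205, a relative of Aim2, rose by 7.02 ± 0.34 in KPC and 4.97 ± 0.4 in MB49. Pycard, which encodes the adaptor ASC that links AIM2 to caspase-1, had too few counts to be tested, with 1 and 5 counts in KPC and 14 and 1 in MB49. Il1b had 2 counts in MB49 controls and 0 in the other groups. The 21 interferon genes summed to 80 and 19 counts in the KPC control and irradiated groups, and to 44 and 9 in MB49. Of these, Ifnz made up 79 and 8 in KPC and 42 and 8 in MB49, and it was the only one tested (-2.94 ± 0.51 in KPC, adjusted p = 8.46e-05). Ifnb1, an interferon gene that IRF3 drives, had 1 count in KPC controls and 10 after 8 Gy, and 0 and 1 in MB49.

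**Figure D4:**
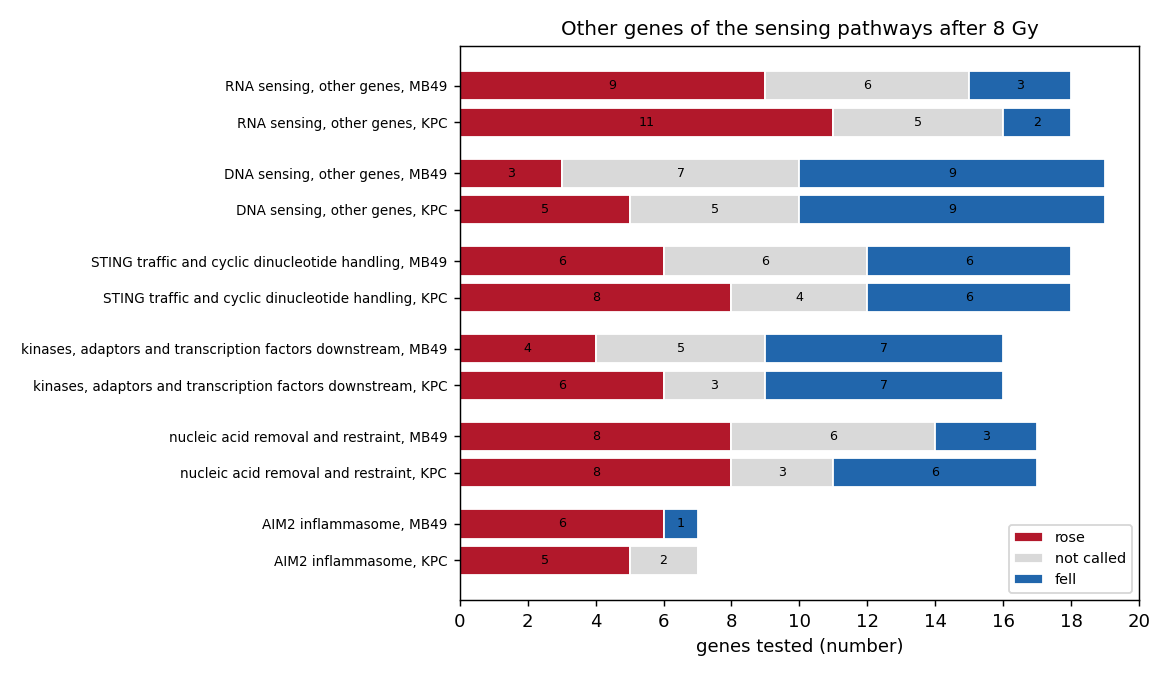
Number of tested genes (horizontal axis) on 6 pathway lists that rose, were not called or fell after 8 Gy at an adjusted p under 0.05, in MB49 and KPC. In KPC 11 genes rose and 2 fell in RNA sensing, and 5 rose and 9 fell in DNA sensing; over all genes 31.3% rose and 32.0% fell in KPC, and 35.3% and 31.6% in MB49.

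The genes most like each member over the 12 libraries, by Pearson correlation of log2 CPM, are given as a description, since the 12 libraries form 4 groups. Trex1 was most like Epsti1 and Dxo (r = 0.99 for each) and Cfb (0.987), and Tlr3 was most like Cmpk2 (0.986), Milr1 (0.985) and Ripk2 (0.982). Sting1 was nearest to Anapc5 (0.996), C1rl and Psmd8 (0.993 each). For Rigi the nearest were Intu (0.993), Ccdc6 (0.992) and Hdlbp (0.989). Ifih1 was nearest to Pik3ap1 (0.989) and Il13ra1 (0.988). Cgas, high in KPC controls, was nearest to Amot (0.995), Soga1 (0.994) and Masp1 (0.993). Ifih1 and Cgas held 0 to 4 counts per MB49 group, so their log2 CPM there depends on the prior count. Adar lay nearest to Mtor (0.996), Mavs to Cic (0.979), Aim2 to Trim68 (0.99) and Tbk1 to Srek1 (0.906), the weakest of these likenesses.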

How the data were processed

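RNA was extracted with TRIzol and libraries were made with a stranded mRNA kit, per the labels' protocols. fastp, HISAT2, StringTie and the build GRCm39 are named in the submitters' processing notes, without versions; the counting tool and its strand setting are not given in the sources used here. Estimated counts per gene, unscaled, make up the deposited table of the authors, and 6.2 to 8.65% of the values per library are not whole. Gene lengths are those deposited by the authors.

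Estimated counts were rounded, filtered with edgeR's filterByExpr (14362 of 57180 genes kept) and scaled by TMM factors of 0.829 to 1.18. All 12 libraries entered 1 robust quasi-likelihood fit, with a term for each of the 4 groups (8 residual degrees of freedom, common biological coefficient of variation 0.15), and 5 contrasts were tested, 2-sided, with Benjamini-Hochberg adjustment over all genes tested. SE is the size of the change over the square root of F, and 95% intervals use the fit's degrees of freedom. The fit was also run on simulated counts with a single fixed spread, where changes were put only into well-counted genes. The outcome is not given here. Such a run cannot speak to genes near the detection limit, such as Cgas and Ifih1 in MB49, or to the origin of the replicates. The tools were edgeR 4.0.16 and, for an alternative, DESeq2 1.42.0, in R 4.3.3.

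Members and lists were chosen with earlier results of these data known. The text names all 10 members, and genes of a list are taken from its 3 strongest rises and 3 strongest falls per line, provided that they were called and reached 1 CPM in either group. For each member the most similar genes are up to 3 by Pearson correlation. Pycard, Il1b, Ifnb1 and the list sums were chosen after their values were seen. List symbols absent from the table were matched through gene identifiers, which left 1 unmatched. The annotation at hand is GRCm38 and served for names, overlaps and promoter sequences only. Alternatives were another scaling, library totals, DESeq2, no filter and a stricter one, only the groups compared, a replicate block and each library left out.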

Additional observations from a re-analysis of the deposited data

Results flagged for a closer look

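The 8 Gy responses of 5 members differed between the lines by edgeR's test of the difference itself, KPC minus MB49. Over all genes tested, 42.9% were called for this difference, 20.9% larger and 22.0% smaller. The log2 differences were 2.12 for Tlr3, 2.08 for Trex1, 1.44 for Sting1, 1.17 for Rigi and 0.53 for Adar. Sting1, Rigi, Tlr3 and Trex1 rose in both lines and more in KPC. Adar was called in neither line alone, with changes of opposite sign (0.2 in KPC and -0.33 in MB49), and its difference was lost under 9 of 18 alternatives. Cgas and Ifih1 also passed this test and are left out here because MB49 held 0 to 4 of their counts per group.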

How the results depend on the processing

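The number of members called, counted in either direction, stayed within 1.5 times its value under all alternatives run. It ranged from 4 to 7 of 10 in MB49 and from 6 to 7 in KPC. For the difference of responses and between the controls it ranged from 5 to 7, and between the irradiated lines it was 7 throughout. Over all genes, 8932 to 10159 were called in MB49, 8297 to 9706 in KPC and 5451 to 6547 for the difference. Between the controls 8988 to 10482 genes were called, and 8488 to 9866 between the irradiated lines. The number of genes tested varied with the filter. Of 790 single-gene values under these alternatives, leaving out those of Cgas and Ifih1 that rest on MB49 groups of 0 to 4 counts, 753 stayed on the same side of the threshold, 22 lost a call, 15 gained one and 0 called values changed sign. Library totals moved the MB49 split of the members from 5 higher and 0 lower to 2 and 3. The MB49 split of all genes moved from 5066 higher and 4540 lower to 3821 and 5850. That of KPC moved from 4490 and 4596 to 3086 and 6620.

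Whether the replicate numbers of the labels pair the libraries cannot be decided with 3 libraries per group. Same-numbered control and irradiated libraries had deviations that correlated across genes at 0.171, -0.178 and 0.055 in MB49. In KPC these were -0.116, -0.0233 and 0.0194. Differently numbered libraries gave -0.21 to 0.123 in MB49 and -0.117 to 0.126 in KPC. With the replicate number as a block, 5 members were called in MB49, 7 in KPC and 5 for the difference, where Adar and Ifih1 lost their calls. Of all 14362 genes tested, the block fit called 9190, 8723 and 5635 in the same order. Depth limits Cgas and Ifih1 in MB49, with 0 to 4 counts per group, so that a low level could not be measured there. Tlr3 rested on 34 to 67 counts per group outside irradiated KPC cells.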
